A study of Mus musculus with 20 samples.

Results

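The cytosolic ribosomal protein genes, which encode the protein components of the ribosome outside mitochondria, were followed across histone marks and RNA in mouse germline stem cells (GSCs) with and without Kmt2b. Members were taken by symbol alone: names made of Rpl or Rps, a number and at most a short suffix, with Rplp0, Rplp1, Rplp2 and Rpsa. Pseudogene names and the S6 kinases were left out. The rule found 84 of 25965 rows in the chromatin table and 82 of 25067 rows in the RNA table. Rpl13 and Rpl19 were in the chromatin table only. By symbol alone, 48 of the 84 members were placed in the large (60S) subunit proper, 3 in its acidic stalk and 33 in the small (40S) subunit. The 33 include Rps4y2, which RefSeq lists as a transcribed pseudogene, and the 48 include the related factor Rpl7l1. They lay on 19 chromosomes, and 14 of them were on chromosome 7.

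GSCs are cultured spermatogonial stem cells, here kept on fibroblast feeder cells. In control cells (Kmt2b F/F), both Kmt2b alleles were floxed, Rosa26-CreERT2 supplied an inducible Cre, and ethanol alone was given. Knockout cells (FC/FC) had the same alleles and received 4-hydroxytamoxifen (4-OHT) at 1 μM, and both were collected 6 days later. The loss of Kmt2b and the exposure to 4-OHT therefore cannot be told apart. H3K4me3, H3K27me3, input DNA and RNA were measured in 2 control and 2 knockout libraries each, from duplicate cell lines according to the series' design text. H3K9me3 was measured in 2 control libraries with their own pair of inputs, for which neither treatment nor harvest day is given. Nothing says whether the 2 lines of a group come from separate animals, so p-values measure only the spread between these libraries.

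Each ribosome holds a single copy of nearly every ribosomal protein, so cells keep the output of these scattered genes in balance. Their promoters are typically CpG-rich and active in every dividing cell, and carry H3K4me3, the histone mark of active and poised promoters. Kmt2b is one of the H3K4 methyltransferases. The mRNAs of most members begin with a run of pyrimidines, the terminal oligopyrimidine or TOP motif, through which mTOR signalling sets their translation.

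Such a start could be read in the reference sequences of some members. RefSeq (GRCm38.p6) promoter sequences were matched for 63 of the 84 members. The lines below hold the 60 bases before the RefSeq start and 20 bases from the start onward, on the strand of the gene, 5′ to 3′. Capitals mark the unbroken run of C and T that holds the start. These 6 are shown as examples that have such a run, chosen with it in view.
Rpl7a (chr2:26910747-26910826, plus strand): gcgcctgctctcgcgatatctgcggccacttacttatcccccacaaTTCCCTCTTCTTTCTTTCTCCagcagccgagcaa
Rpl27a (chr7:109519135-109519214, plus strand): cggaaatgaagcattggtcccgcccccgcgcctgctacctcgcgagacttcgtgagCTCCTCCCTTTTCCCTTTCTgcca
Rpl35 (chr2:39005112-39005191, minus strand): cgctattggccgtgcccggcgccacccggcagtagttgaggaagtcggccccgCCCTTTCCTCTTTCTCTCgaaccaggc
Rps10 (chr17:27635225-27635304, minus strand): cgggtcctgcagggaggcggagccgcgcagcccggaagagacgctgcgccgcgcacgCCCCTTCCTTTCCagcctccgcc
Rplp2 (chr7:141447591-141447670, plus strand): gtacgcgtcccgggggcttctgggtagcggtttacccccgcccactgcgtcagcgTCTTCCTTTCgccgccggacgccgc
Rps6 (chr4:86857348-86857427, minus strand): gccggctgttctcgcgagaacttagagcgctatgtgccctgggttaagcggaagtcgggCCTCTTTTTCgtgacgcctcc

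The run was 21 bases long in Rpl7a, 20 in Rpl27a, 18 in Rpl35, 13 in Rps10 and 10 in both Rplp2 and Rps6. Over the 63 matched members, the RefSeq start fell on C or T in 29 (46.0%) and inside a pyrimidine run of at least 5 bases in 18 (28.6%). Among all 32851 RefSeq promoters the shares were 30.0% and 10.1%. No such run held the RefSeq start of Rps12, Rpl37, Rpl26, Rps27l, Rpl3l or Rpl13a, on which later results turn. A RefSeq start a few bases off the true one would hide such a run, so these shares describe the annotation.

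Another feature was the motif CCGGAAG, the core bound by ETS family factors, searched on both strands (the other strand reads CTTCCGG) from 250 bases before to 50 bases from the start onward. It occurred in 25 of 63 members (39.7%), against 8.86% of all promoters. Rps12, Rpl3l and Rpl13a, on which later results also turn, had no match. The members below, which return in the results on H3K4me3 and RNA, show it in capitals near the start.
Rps27l (chr9:66946026-66946105, plus strand): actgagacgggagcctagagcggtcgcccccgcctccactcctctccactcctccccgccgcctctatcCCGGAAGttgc
Rpl26 (chr11:68901506-68901585, plus strand): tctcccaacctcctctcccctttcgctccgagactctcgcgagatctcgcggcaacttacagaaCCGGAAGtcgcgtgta
Rpl37 (chr15:5116553-5116632, plus strand): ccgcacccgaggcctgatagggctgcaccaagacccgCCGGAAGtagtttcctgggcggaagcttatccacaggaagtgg

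The GC box GGGCGG occurred in 38 members (60.3%, against 35.7% of all promoters), and AAGATGGC, the core of the YY1 motif, in 5 (7.94% against 2.75%). The E-box CACGTG stood near its general share, in 5 members (7.94% against 7.15%). TATAAA, the TATA box, was found in 6 members (9.52% against 13.6%). All motifs were searched on both strands, and a match is a description of the letters only.

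In sequencing depth, the H3K4me3 libraries held 10360152 and 18035122 mapped reads in control and 3830045 and 16578722 in knockout, the RNA libraries 38458010 to 45771857, and the others 10538531 to 63537169. Values are RPM, in which each read counts relative to all reads its library mapped. The Kmt2b row (older symbol Wbp7) gave 142 and 150 RPM of RNA in control and 131 and 185 RPM in knockout, so its total count did not mark the genotype; the deleted exons are not resolved in these data. Knockout replicate 1 of H3K4me3 stood apart in depth, and it also had the lowest median over all windows (3.13 RPM, against 5.19 RPM in the other knockout and 7.72 and 9.48 RPM in control). RNA of the 18 fibroblast feeder markers summed to 498 and 530 RPM in control and to 548 and 690 RPM in knockout. Of the 17 tested, Col1a1 (collagen) and Pdgfra (a growth factor receptor) were called higher, against 3.01% of all genes tested. In H3K4me3, 5 of the 15 feeder markers tested were called lower and 0 higher, against 9.9% and 0.0512% of all windows tested. What feeder cells contribute to the differences at the ribosomal protein genes was not tested. RNA of 15 germ cell markers summed to 3359 to 3648 RPM in all 4 libraries. Of these, 2 were called higher (log2 change 0.62 for both), against 3.01% of all genes tested. They were Gfra1 and Ret, which form the GDNF receptor. RNA of 9 Sertoli and Leydig cell markers summed to between 21.4 and 26.4 RPM, with Amh, Cyp17a1 and Hsd3b1 under 0.1 RPM in each. In bulk cultures, fewer cells of a type and less RNA per cell cannot be told apart.

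Ribosomal protein genes were H3K4me3 promoters without H3K27me3 in control cells. A window was scored from its log2(RPM + 0.5) over the same-numbered input, with H3K4me3 required to reach 1.5 and H3K27me3 to reach 1 in both control libraries. By this rule 81 of 84 members carried H3K4me3 only, against 49.9% of all windows. None was bivalent or carried H3K27me3 alone, and Rps2, Rps10 and Rpl3l carried neither. H3K4me3 exceeded input by a median of 4.39 and 4.42 on the log2 scale in the 2 control libraries.

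H3K4me3 at members ran from 0.386 to 36.6 RPM with a median of 22.8 RPM in control replicate 1, and from 0.388 to 37.4 RPM with a median of 23.6 RPM in control replicate 2. In knockout replicate 1 it ran from 0.235 to 45.4 RPM with a median of 23.8 RPM, and in knockout replicate 2 from 0.241 to 43.9 RPM with a median of 28.2 RPM. The member median was therefore higher in both knockout libraries than in either control library, while the median of all windows was lower in both. Knockout replicate 1 exceeded control replicate 2 only slightly (23.8 against 23.6 RPM). Of 83 members (without Rps2), 48 lay above the control mean and 35 below in knockout replicate 1, and 77 and 6 in replicate 2. RPM is relative to the reads of each library, so these values cannot show an absolute gain of the mark. The strongest windows were those of Rpl26 (34.7 and 37.4 RPM in control), a protein near the exit of the ribosomal tunnel, Rpl23 (36.6 and 31.9 RPM) and Rpl9 (33.3 and 34.9 RPM), with Rps6, the substrate of the S6 kinases, close behind (34.1 and 34.2 RPM).

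**Figure D1:**
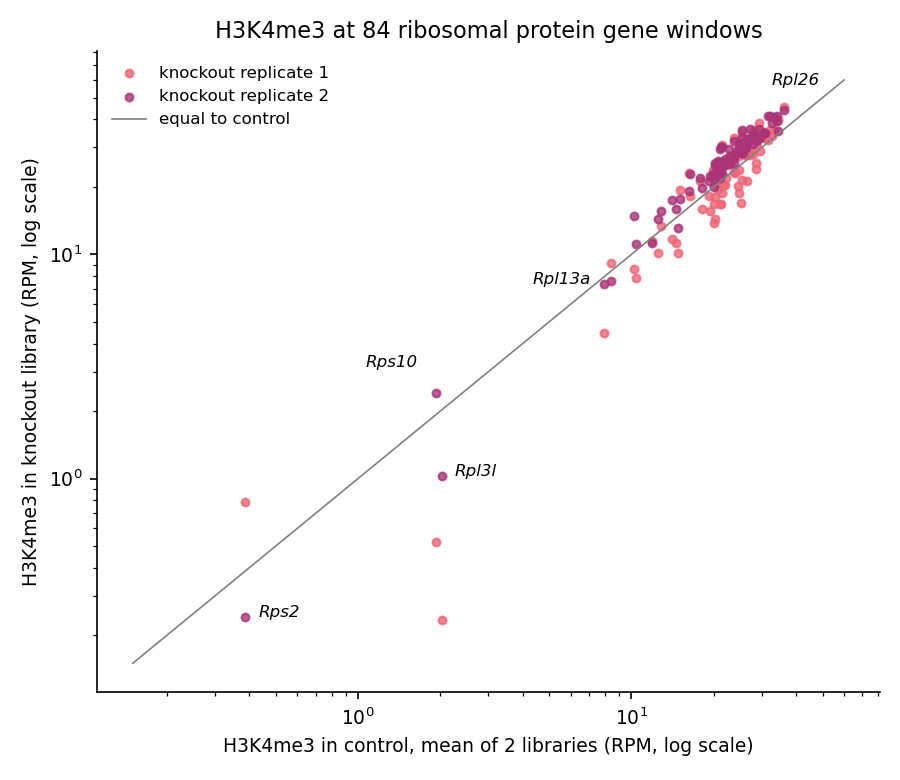
H3K4me3 in each knockout library (vertical axis, RPM) against the mean of the 2 control libraries (horizontal axis, RPM) for 84 ribosomal protein gene windows, both on log scales; each member has 1 point per knockout library and the line marks equality. Most points of knockout replicate 2 lie above the line, those of replicate 1 lie on both sides of it, and Rps2, Rps10 and Rpl3l lie far below the rest.

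No member was called in the H3K4me3 comparison of knockout with control. Of 83 members tested (Rps2 lay under the minimum mean of 1 RPM), limma with Benjamini-Hochberg adjustment over 15624 windows called 0 lower and 0 higher, where 9.9% of all windows tested were called lower and 0.0512% higher. At an unadjusted p under 0.05 there were 1 lower (Rpl3l) and 2 higher (Rps12 and Rpl37). Of all 15624 windows tested, 3853 were lower and 49 higher at that threshold. Over all 84 members the log2 change was positive in 62, with a median of 0.14, and over all windows tested the median was -0.26. In 42 members both knockout libraries exceeded both control libraries and in 2 both lay below them, against 8.98% and 42.8% of all windows tested. The median change was 0.17 for the 60S members, 0.12 for the 40S members and 0.03 for the 3 stalk genes.

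How far the data bound these changes differed by member. The 95% interval of the change lay within 1.5-fold in either direction for 22 of 83 members, and within 2-fold for 79. The calls also depended on the scaling. With each library centred on its median over all windows tested, which moved the median of all windows from -0.26 to 0.03, limma called 12 members higher (4.11% of all windows), with a member median of 0.43. With TMM scaling of the recovered reads and limma voom it called 46 members higher and 1 lower (16.2% and 25.8% of all windows), with a median of 0.34. Quantile normalization gave 5 higher (2.65% of all windows). Over input, limma called 0 members in either direction (2.47% of all windows lower and 0% higher), with a member median of 0.07. Without knockout replicate 2, limma called 3 members lower and 7 higher (44.1% and 0.819% of all windows).

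Rps12, a 40S protein, had the largest difference upward. Its window held 19.5 and 23.6 RPM in control and 30.8 and 30.2 RPM in knockout, so the groups did not overlap. The log2 change was 0.51 ± 0.24 (SE) with a limma adjusted p of 0.153. Over input it was 0.35 (limma adjusted p = 0.674). Rpl37, a zinc-binding 60S protein, held 24.9 and 26.0 RPM in control and 35.2 and 35.7 RPM in knockout, again without overlap. Its log2 change was 0.48 ± 0.21 (SE), with a limma adjusted p of 0.119. Input at Rpl37 was also higher in knockout (0.929 and 0.913 RPM) than in control (0.547 and 0.625 RPM), and over input the change was 0.083 (limma adjusted p = 0.942). Median centring, quantile normalization and voom each called both Rps12 (limma adjusted p = 0.0463, 0.0345 and 0.000952) and Rpl37 (limma adjusted p = 0.0463, 0.0454 and 0.00086). Rps9, a 40S protein, followed with 15.6 and 17.0 RPM in control and 23.0 and 19.2 RPM in knockout.

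At Rpl26, the strongest window, H3K4me3 was 36.1 ± 1.9 RPM (SD, n = 2) in control and 44.7 ± 1.1 RPM (SD, n = 2) in knockout, a log2 change of 0.31. Rps6 had 34.1 and 34.2 RPM in control and 39.2 and 39.3 RPM in knockout, also without overlap. Neither passed the test (limma adjusted p = 0.208 and 0.556). The change at Rpl26 was 0.054 with quantile normalization and 0.72 over input (limma adjusted p = 0.729 and 0.266), and voom called it (0.52, limma adjusted p = 0.00479). Among the other well-known members, Rplp0, Rplp1 and Rplp2 (stalk), Rpsa, Rps19, Rps27a, Rpl5 and Rpl11 had log2 changes between -0.09 (Rplp2) and 0.17 (Rpl5). Rpl5 and Rpl11 are the proteins that, when free of ribosomes, bind the p53 regulator Mdm2.

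Rpl3l, the muscle paralogue of Rpl3, had the largest difference downward. Its window held 16 and 45 reads in control (1.54 and 2.50 RPM), no read in knockout replicate 1, listed at a floor of 0.235 RPM, and 17 reads in knockout replicate 2 (1.03 RPM). The groups did not overlap, and the log2 change was -2.00 ± 0.82 (SE) with a limma adjusted p of 0.0932. The value depends on the library without a read. Without knockout replicate 1 the change was -0.94. Without knockout replicate 2, which leaves only the knockout library without a read, it was -3.06. A fit with a lone knockout library holds no spread between knockout libraries. Quantile normalization gave -0.32 (limma adjusted p = 0.775), and voom called it at -2.17 (limma adjusted p = 0.00753). Rps10 followed with 2.32 and 1.55 RPM in control and 0.522 and 2.41 RPM in knockout, where the groups overlapped. Rpl13a was next, with 7.05 and 8.82 RPM in control and 4.44 and 7.36 RPM in knockout, which also overlapped.

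Rps10, Rpl13a and Rps2 encode core ribosomal proteins with abundant RNA, and their low H3K4me3 went with the place of the window. This comparison was made after the low values were seen. The listed start, taken as the 5′ end of each row, lay within 100 bases of a RefSeq start in 51 of the 63 matched members and over 1000 bases away in 4. Those 4 were Rpl13a (7486 bases), Rpl18 (2614 bases), Rps2 (1947 bases) and Rps10 (1385 bases). Their control H3K4me3 was at most 10.4 RPM, against a median of 23.7 RPM in the 59 members whose starts lay closer. The lowest of those 59, apart from Rpl3l, was Rps4x at 8.42 RPM.

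Other rows that begin beside the RefSeq starts of these members held far more of the mark. The row of Snhg9, 98 bases upstream of the RefSeq start of Rps2, held 21.9 and 23.0 RPM in control and 23.2 and 28.2 RPM in knockout. Gm15420, 99 bases upstream of that of Rps10, held 23.2 and 25.1 RPM in control and 30.3 and 32.3 RPM in knockout. Sphk2, 69 bases upstream of that of Rpl18, held 31.9 and 33.8 RPM in control and 30.5 and 41.3 RPM in knockout. In all 3 rows the control values were within the range of the members. The values of Rps2, Rps10, Rpl18 and Rpl13a are those of their listed windows, whose size and place are not given in the sources used here. Whether the distance accounts for the low values was not tested. Leaving these 4 out, the member median change in H3K4me3 was 0.15.

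**Figure D2:**
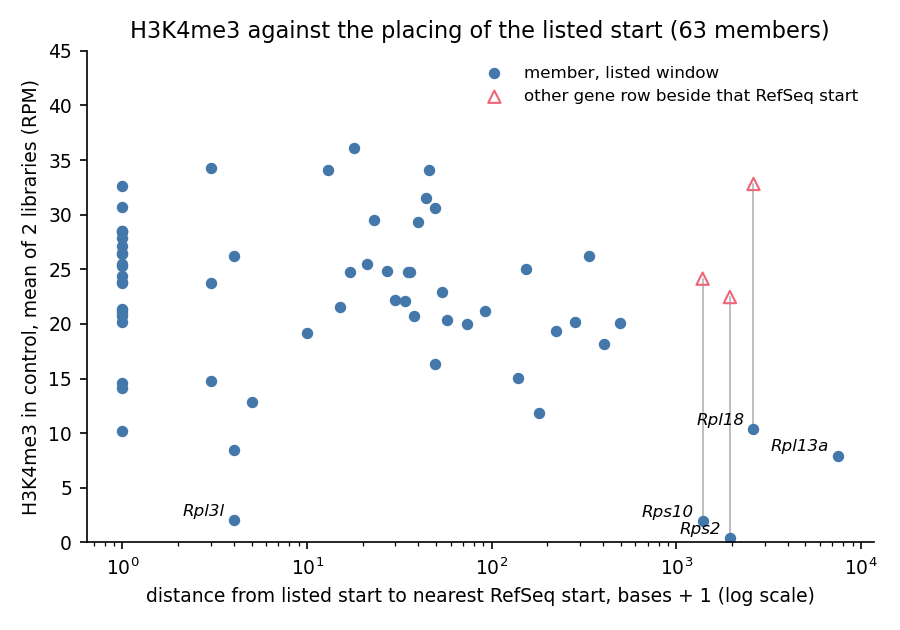
Mean control H3K4me3 (vertical axis, RPM) against the distance from the listed start to the nearest RefSeq start (horizontal axis, bases plus 1, log scale) for 63 members; triangles joined by a line show another gene's row that begins beside the RefSeq start. The 4 members over 1000 bases away lie at or below 10.4 RPM, and 3 of them have a row beside their RefSeq start with over 20 RPM.

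Closely spaced starts were about as frequent as elsewhere. Another listed start lay within 1000 bases of that of 13 members (15.5%), 12 of them on the opposite strand, against 14.8% of all windows. Examples are Rpl7a with Med22 (87 bases upstream), Rps28 with Ndufa7 (29 bases) and Rpl9 with Lias (54 bases). H3K4me3 at these windows cannot be assigned to one gene.

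The 4 X-linked members, Rpl39, Rpl10, Rps4x and Rpl36a, held less H3K4me3 than the 80 autosomal ones, a split made after the values were seen. Their median was 9.80 and 12.3 RPM in control and 10.3 and 13.0 RPM in knockout. Autosomal members had medians of 23.2 and 23.9 RPM in control and 24.4 and 28.5 RPM in knockout. Input was also lower at the X-linked windows, with medians of 0.501 and 0.382 RPM in control against 0.638 and 0.625 RPM at autosomal ones. The split was not particular to members: over all windows the medians were 1.54 and 2.11 RPM on the X chromosome and 8.78 and 10.9 RPM on autosomes in control. How much of it follows the number of X chromosomes was not tested.

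H3K27me3, the Polycomb mark of silenced promoters, had a median below that of input at the members in all 4 libraries. The median was 0.239 and 0.275 RPM in control and 0.270 and 0.380 RPM in knockout, and the highest value in any library was 1.14 RPM. Input had medians between 0.555 and 0.638 RPM at the same windows. Over the same-numbered input, 12 and 16 of 84 members lay above 0 on the log2(RPM + 0.5) scale in control and 11 and 25 in knockout. The highest in knockout replicate 1 was Rps4x, at 1.01, with 0.98 in replicate 2, where its input was 0.0844 and 0.140 RPM. None of the 84 members reached the minimum mean of 1 RPM, so limma tested 0 of them, where 0% of windows tested were called lower and 0.791% higher. With no minimum, limma called 0 of 84 in either direction (0% of all windows lower and 0.189% higher), with 0 lower and 2 higher at an unadjusted p under 0.05. Of all 25965 windows, 281 were lower and 1432 higher at that unadjusted threshold.

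Input DNA showed no call either. Of 83 members tested, limma called 0 lower and 0 higher, with 1 lower and 0 higher at an unadjusted p under 0.05 (0% of all windows were called in either direction). Of all 15624 windows tested, 396 were lower and 345 higher at that unadjusted threshold. The median log2 change of input over the 84 members was 0.07.

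H3K9me3, a mark of silenced chromatin measured in control cells only, lay below input at nearly all members. Its log2(RPM + 0.5) over input had a median of -0.71 and -0.70 in the 2 libraries, against -0.62 and -0.65 over all windows. Rpl39l was the exception in both libraries, at 1.07 and 0.454 RPM against 0.331 and 0.284 RPM of input. Rpl10l was above input in replicate 2 alone, at 0.237 RPM against 0.213 RPM. Both are paralogues known for expression in the testis, and both windows also carried H3K4me3.

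RNA of the 82 member rows made up 3.63% and 3.70% of the reads in gene rows in control, and 4.00% and 3.20% in knockout. Their RPM summed to 25418 and 26037 in control and to 27097 and 23284 in knockout. Neither figure holds Rpl13, Rpl19 or the rows named as pseudogenes, which are described below. The knockout libraries lay on either side of the controls. The highest rows in control were Rpl4 (1350 and 1366 RPM), Rps2 (1190 and 1221 RPM) and Rplp0 (982 and 998 RPM), and the lowest were Rpl3l, Rpl39 (28.7 and 32.3 RPM) and Rps27l. RPM is not divided by transcript length, so these values do not order the genes by number of transcripts.

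No member passed the test in RNA. Of 82 members, limma with Benjamini-Hochberg adjustment over 14100 genes called 0 lower and 0 higher, where 0.312% of all genes tested were called lower and 3.01% higher. At an unadjusted p under 0.05 there were 2 lower (Rps27l and Rpl3l) and 0 higher. Of all 14100 genes tested, 508 were lower and 2326 higher at that threshold. The median log2 change of members was -0.03 and that of all genes tested 0.06. Both knockout libraries lay below both control libraries in 15 members and above them in 0, against 16% and 36.2% of all genes tested. The 95% interval lay within 1.5-fold in either direction for 80 of 82 members and within 2-fold for all 82.

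The 2 knockout RNA libraries differed from each other across nearly the whole set. Of 82 members, 81 were higher in knockout replicate 1 than in replicate 2, with Rpl7l1 as the exception and a median log2 difference of 0.24. Over all genes tested 32.2% were higher in replicate 1, with a median difference of -0.12. Against the control mean, 65 members lay above in knockout replicate 1 (median 0.09) and 81 lay below in knockout replicate 2 (median -0.14). In control, 18 of 82 were higher in replicate 1, with a median difference of -0.03. The feeder marker sum was also higher in knockout replicate 2 (690 RPM) than in replicate 1 (548 RPM), and its part in the difference was not tested.

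Calls for the set therefore turned on which knockout library was used. Without knockout replicate 1, limma called 62 members lower and 0 higher (10.2% and 37.3% of all genes). Without knockout replicate 2 it called 4 lower and 39 higher (22% and 20.9% of all genes). Rps27l was among those called lower in both, and in these fits the lone knockout library is assumed to vary as the controls do.

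**Figure D3:**
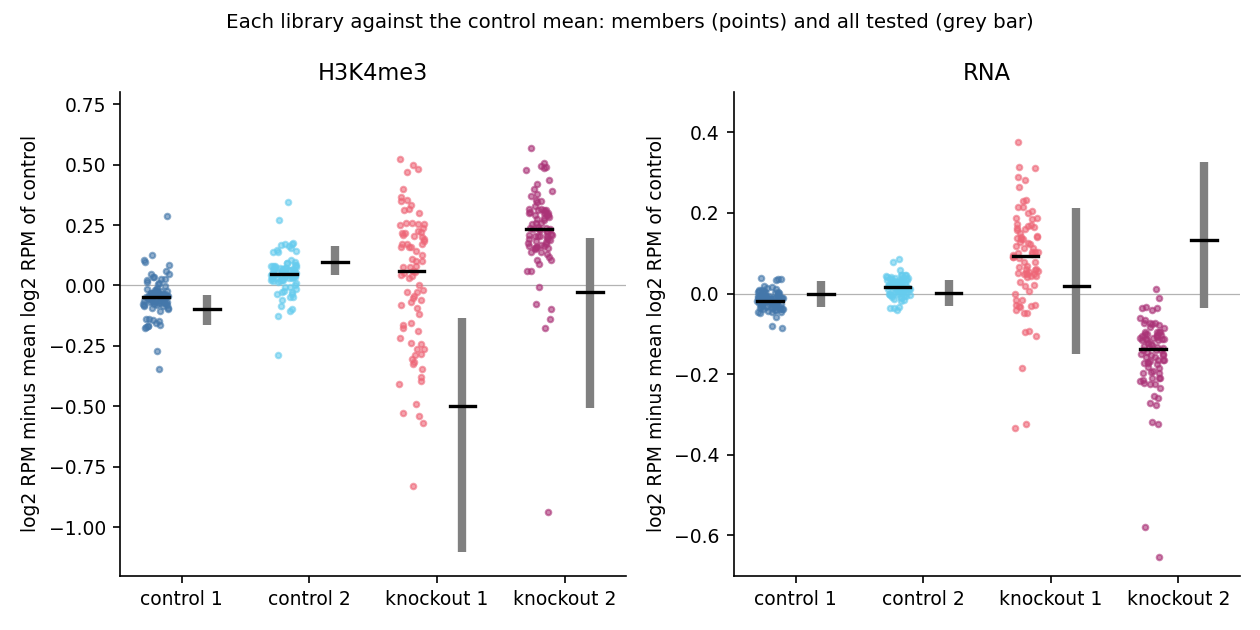
log2 RPM of each library minus the mean log2 RPM of the 2 control libraries, for H3K4me3 (left, 83 members) and RNA (right, 82 members); points are members with their median as a line, and the grey bar spans the middle 50% of all windows or genes tested with their median. Rpl3l and Rps10 lie below the H3K4me3 axis in knockout 1. Member medians sit above those of all windows in both H3K4me3 knockout libraries, whereas in RNA they are 0.09 in knockout 1 and -0.14 in knockout 2.

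Rps27l, a paralogue of the 40S protein Rps27 known as a p53 target, had the largest RNA difference of any member. It lies on chromosome 9 (66946086 to 66949516, plus strand, mm10), and its row held 40.6 and 38.9 RPM in control and 31.8 and 25.3 RPM in knockout. The groups did not overlap, and the log2 change was -0.49 ± 0.13 (SE), with a limma adjusted p of 0.0953. Its log2 ratio to Rps27 in the same library was -0.76 and -0.83 in control and -1.40 and -1.38 in knockout. A single scaling factor per library does not alter this within-library measure. Rps27 itself held 69.0 and 68.9 RPM in control and 83.9 and 65.6 RPM in knockout, which overlapped. H3K4me3 at Rps27l held 25.6 and 31.4 RPM in control and 24.0 and 32.0 RPM in knockout, also overlapping.

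Among 13 listed genes of the p53 pathway, 2 were called in RNA, both higher, where 3.01% of all genes tested were called higher. Cdkn1a, the cell cycle inhibitor p21, had 8.11 and 9.10 RPM in control and 13.9 and 13.0 RPM in knockout (log2 change 0.65, limma adjusted p = 0.0415). Bbc3, the apoptosis gene Puma, had 1.25 and 1.58 RPM in control and 3.52 and 3.00 RPM in knockout (log2 change 1.21, limma adjusted p = 0.0347).

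Rpl3l came second in RNA. Its row held 5.59 and 5.32 RPM in control and 4.33 and 3.65 RPM in knockout, without overlap. The log2 change was -0.46 ± 0.15 (SE), with a limma adjusted p of 0.163. Its parent Rpl3, part of the peptidyl transferase region, held 277 and 287 RPM in control and 264 and 263 RPM in knockout. The log2 ratio of Rpl3l to Rpl3 was -5.63 and -5.75 in control and -5.93 and -6.17 in knockout. In control, Rpl3l had the lowest RNA row of all members and one of the 3 lowest H3K4me3 windows.

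The other extremes in RNA were small. Rpl27a, shown above with a run of 20 pyrimidines, held 307 and 310 RPM in control and 289 and 256 RPM in knockout, a log2 change of -0.18 without overlap. The largest differences upward were 0.14 for Rpl39, 0.12 for Rpl35 and 0.11 for Rps15, each with overlapping groups. None of these passed the test (limma adjusted p = 0.362 for Rpl27a and 0.646 to 0.714 for the others). Of the well-known members, Rps19, mutated in Diamond-Blackfan anaemia, held 283 and 285 RPM in control and 281 and 237 RPM in knockout. Rpsa, which is also known as a laminin receptor, held 659 and 686 RPM in control and 719 and 616 RPM in knockout.

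The other paralogues are set beside the genes they derive from, in RPM that is not per length. Rpl39l, the testis paralogue of X-linked Rpl39, held 86.0 and 85.1 RPM of RNA in control and 83.8 and 68.6 RPM in knockout. Rpl39 held 28.7 and 32.3 RPM in control and 39.5 and 28.3 RPM in knockout. The log2 ratio of Rpl39l to Rpl39 was 1.59 and 1.40 in control and 1.09 and 1.28 in knockout, so the autosomal copy had the larger row in every library. As in most of the other pairs, the ratios of the groups did not overlap. In H3K4me3 the same ratio was 0.31 and 0.33 in control and -0.17 and 0.22 in knockout.

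Rpl10l, the retrocopy of X-linked Rpl10 that takes its place in male meiosis, held 113 and 107 RPM of RNA in control and 120 and 107 RPM in knockout. Its log2 ratio to Rpl10 was -0.49 and -0.54 in control and -0.35 and -0.33 in knockout. Rps4y2, which RefSeq lists as Rps4l and as a transcribed pseudogene, held 259 and 245 RPM in control, over its X-linked relative Rps4x at 118 and 120 RPM. Knockout values were 255 and 233 RPM for Rps4y2 and 111 and 105 RPM for Rps4x, so the order was the same.

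Rpl22l1, which can replace Rpl22, held 110 and 116 RPM of RNA in control and 140 and 105 RPM in knockout. Its H3K4me3 held 19.3 and 20.6 RPM in control and 13.8 and 21.7 RPM in knockout, and its ratio to Rpl22 was -0.30 and -0.32 in control and -1.05 and -0.54 in knockout. The parent Rpl22 had 23.7 and 25.7 RPM of H3K4me3 in control and 28.7 and 31.5 RPM in knockout. Rpl7l1, a factor related to Rpl7, held 125 and 122 RPM of RNA in control and 109 and 112 RPM in knockout, without overlap. Over all pairs, the RNA ratios of control and knockout did not overlap for Rps27l, Rpl3l, Rpl39l, Rpl10l and Rps4y2. They overlapped for Rpl7l1 and Rpl22l1. With 2 libraries in each group, an exact permutation test of such ratios cannot go below the usual threshold, and none was made.

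**Figure D4:**
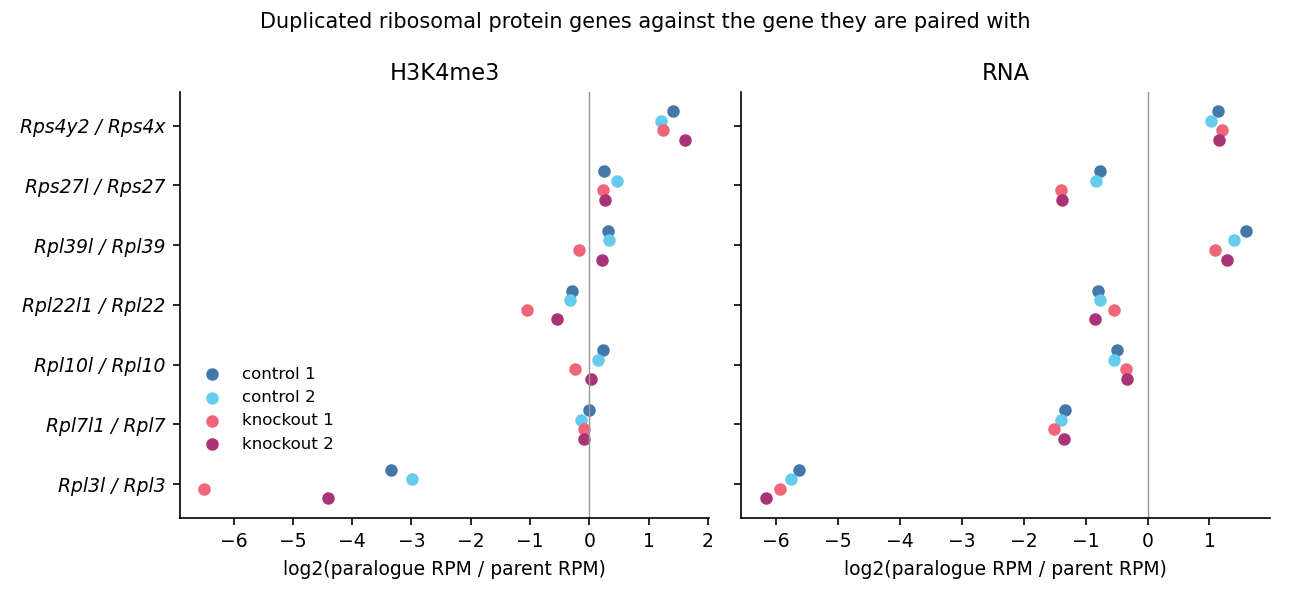
log2 ratio of paralogue to parent gene RPM within each library (horizontal axes) for 7 pairs (rows), in H3K4me3 (left) and RNA (right); each point is 1 library, and the line at 0 marks equal RPM. The lowest Rpl3l point in H3K4me3 is the library without a read, drawn at its floor. RPM is not per length, so the position within a row compares libraries and not genes. In RNA, the Rps27l ratio is lower in both knockout libraries (-1.40 and -1.38) than in both controls (-0.76 and -0.83). The RNA ratios of the groups also do not overlap for Rpl3l, Rpl39l, Rpl10l and Rps4y2.

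Related gene groups, from lists chosen with earlier results of these data known, give the setting. Among 16 translation factors and other genes with TOP mRNAs, limma called 0 in H3K4me3 and 0 in RNA, with median log2 changes of 0.26 and -0.05. Of 43 rRNA processing and ribosome assembly factors 0 were called in either, with medians of 0.09 and -0.04. Of 14 RNA polymerase I subunits and factors, 1 was called higher in H3K4me3 (Polr1c, a subunit shared with RNA polymerase III, log2 change 0.51, limma adjusted p = 0.0246) and 0 in RNA. Shares over all features tested were 9.9% lower and 0.0512% higher in H3K4me3, and 0.312% and 3.01% in RNA. Of 13 mTOR pathway and MYC regulators 0 were called in H3K4me3 and 0 of the 12 tested in RNA. The 4 ribosomal proteins named outside the rule had median changes of 0.12 in H3K4me3 and -0.01 in RNA, with no call.

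Mitochondrial ribosomal proteins shared the split between the knockout RNA libraries. Of 76, 69 were higher in knockout replicate 1 than in replicate 2, with a median difference of 0.15. Among the TOP list it was 11 of 16 (median 0.09), and among assembly factors 15 of 43 (median -0.04). None of 75 mitochondrial members tested was called in H3K4me3 (median 0.05) and none of 76 in RNA (median -0.03).

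Processed pseudogenes bear on how the RNA of members was counted. Ribosomal protein genes have left many retrocopies in the genome, and 60 rows carried a member's name with the suffix for pseudogene. They were examined after the values were seen. Of these, 44 had a control RNA mean of at least 10 RPM and 29 of at least 100 RPM, although their median control H3K4me3 was 0.197 RPM. Only Rps10-ps1 carried H3K4me3 alone by the rule above, and 3 more were bivalent, Rpl31-ps13, Rpl13-ps3 and Rps2-ps6. The highest control H3K4me3 of any pseudogene row was 5.22 RPM.

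The row of Rpsa-ps10, a retrocopy of Rpsa on chromosome 3, held 1422 and 1455 RPM of RNA in control and 1505 and 1321 RPM in knockout. Rpsa itself held 659 and 686 RPM in control, and H3K4me3 at Rpsa-ps10 was 0.869 and 0.943 RPM in control. Rpl21 had 11 pseudogene rows, which took 86.1% and 86.6% of the reads of the family in control. In 14 of 30 such families the pseudogene rows held more than the member's own row in both controls. Pseudogene rows summed to 10200 and 10429 RPM in control and to 10680 and 9218 RPM in knockout, and all 44 rows of at least 10 RPM were higher in knockout replicate 1 than in replicate 2. How reads that match several near-identical copies were counted is not given in the sources used here, and whether copies shared reads was not tested, so RNA levels of members with retrocopies are uncertain. In other families the pseudogene rows took almost nothing, as in that of Rpl26 (0.121% and 0.138% in control). Summing each family moved its log2 change by at most 0.04 from that of the own row.

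**Figure D5:**
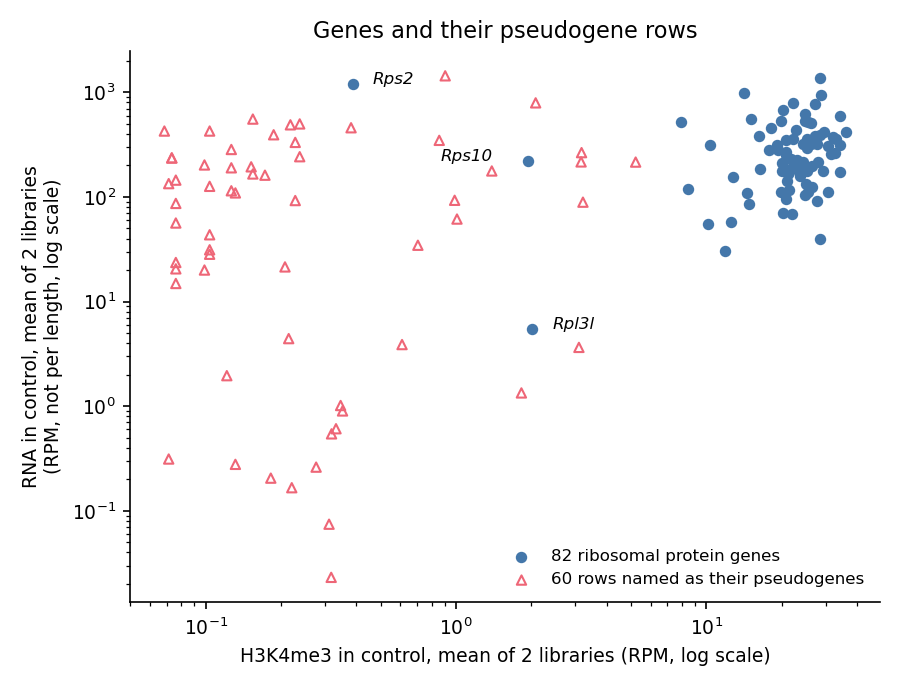
RNA (vertical axis, RPM, not per length) against H3K4me3 (horizontal axis, RPM), both as control means of 2 libraries on log scales, for 82 ribosomal protein genes and 60 rows named as their pseudogenes. All but a few genes lie at high H3K4me3, while pseudogene rows span the range of RNA at an H3K4me3 of at most 5.22 RPM.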

How the data were processed

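The deposited chromatin table holds log2 RPM for 1 window per gene in 16 libraries, and the deposited RNA table log2 RPM per gene in 4, both on mm10. Neither is divided by input or gene length. Per the submitters' processing notes, which give no roles, the tools were TopHat2 2.0.14, Bowtie 1.1.1, Trim Galore 0.4.0 and CASAVA 1.8. The RNA kit was directional, per the labels' protocols, but the strand setting of the counts, the handling of reads with several matches and the window are not given in the sources used here. Raised to the power of 2, each library's values were whole multiples of a fixed step (100% within 0.1), which gave reads and depth, and rows without a read stood at 0.9 of a step.

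Knockout and control libraries were compared on the deposited log2 values with limma 3.58.1 in R 4.3.3 (mean-variance trend, two-sided, Benjamini-Hochberg over all features tested), after a check on simulated data. A call is an adjusted p under 0.05. A window needed a mean RPM of 1 or more to be tested, a gene a mean log2 RPM of 0 or more, and input used the H3K4me3 windows. limma voom with TMM factors was run on the recovered reads. Alternatives were other scalings, minimum levels and pseudocounts, ratios over input, a replicate block and leaving out each library.

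The members and lists were chosen with earlier results of these data known. Named members were the paralogue pairs, those called, the 3 largest and 3 smallest changes and the 3 highest and lowest levels, windows without H3K4me3 and a list of well-known members. Members named for near starts, distant RefSeq starts or promoter sequence, and pseudogenes, were chosen after their values were seen. No transcript lengths were used. Column order was not used to assign samples. In the 2 members not in the RNA table, RNA was not analysed here.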

Additional observations from a re-analysis of the deposited data

How the results depend on the processing

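Of 116 values recomputed for whole comparisons, 100 were scored as the same and 16 as moved. Every main count of calls was 0, so a recomputed count was the same only at 0. Input counts had little room to move, as almost no window was called in any setting. A median was the same within 1 SD between replicates of the main median. That SD was 0.39 for H3K27me3, so medians of the other sign also scored as the same. For H3K4me3, limma called 12 members higher with median centring, 5 with quantile normalization and 46 with TMM and limma voom, which also called 1 lower. The median change was 0.43 with median centring, 0.34 with voom and 0.07 over input, against 0.14 in the main fit. It was positive under each alternative. Leaving out each library in turn gave 0 to 3 members lower and 0 to 7 higher, and medians of 0.06 to 0.23. The 3 lower (Rps20, Rpl3l and Rps10) and 7 higher came without knockout replicate 2. In RNA, leaving out each library gave 0 to 62 members lower, 0 to 39 higher and medians of -0.14 to 0.094. The RNA median was 0.01 with quantile normalization, and so of the other sign. The input median was 0.025 on the log2(RPM + 0.5) scale and 0.018 to 0.090 on leaving out each library. The H3K27me3 median of 0.15 ran from -0.23 to 0.43 on leaving out libraries and has no stable sign at these read numbers. The cause of these shifts was not tested. H3K4me3 only was assigned to 81 members under each of 3 other class settings.

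With the replicate number as a block, limma called 3 members higher in H3K4me3 (Rps12, Rpl26 and Rpl37; 0.448% of all windows higher, 25.8% lower) and 1 lower in RNA (Rps27l, limma adjusted p = 0.0068; 1.38% of all genes lower, 9.16% higher), and no others. The labels do not say that equal numbers pair the lines, so the numbers are treated as shared names. Deviations of same-numbered libraries correlated at 0.15 in H3K4me3, 0.06 in H3K27me3 and 0.09 in RNA. This correlation cannot see a shift common to all features. Replicate 1 was higher in 86.5% (control) and 88.8% (knockout) of H3K27me3 windows tested, and in 11.1% and 10.2% of H3K4me3 windows. In RNA it was higher in 48.4% and 32.2% of genes. Whether equal numbers mark pairs therefore cannot be told from these values. The adjusted p of Rps27l in RNA otherwise ran from 5.61e-21 (without knockout replicate 1) to 0.601 (without control replicate 1), and its change was negative under each alternative. Depth limits Rps2, Rps10 and Rpl3l, with 0 to 45 H3K4me3 reads per library.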
